A study of Rattus norvegicus with 8 samples.

Results

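The collagen chains are the genes of the deposited table whose symbol consists of Col, a number, the letter a and a number, and 44 of its 29884 gene symbols met this rule. The table comes from the cervix of wild-type pregnant Sprague-Dawley rats. On gestational day 17 the animals received an intraperitoneal injection of lipopolysaccharide (LPS, a glycolipid of the Gram-negative outer membrane) at 100 µg/kg or as much phosphate-buffered saline (PBS), and tissue was taken 12 hours afterwards. Both groups held 4 libraries, which the design text calls biological replicates, and the controls differed from the treated animals by the injected solution alone as far as the labels say. Libraries held 33191039 to 40634384 counts, and the shallowest was PBS4 (libraries are written PBS1 to PBS4 and LPS1 to LPS4).

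Collagens are secreted or membrane-bound proteins in which 3 chains wind into a triple helix. Fibrillar chains form the banded fibrils that give connective tissue its tensile strength, and network chains form the sheets of basement membranes. FACIT chains (fibril-associated collagens with interrupted triple helices) decorate fibrils, beaded filament chains build the collagen VI microfibrils, and transmembrane chains sit in the cell surface. The uterine cervix is rich in fibrillar collagen, and its softening before birth is known for a loosening of that collagen network. Of the 44 chains, 11 were fibrillar, 9 network, 9 FACIT, 6 beaded filament and 4 transmembrane, and 5 (Col7a1, Col15a1, Col18a1, Col26a1 and Col28a1) fell outside these 5 classes.

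Several chains that share a trimer also share a locus, so the stretches upstream of several chains on which the results below turn are shown, from RefSeq on the build GRCr8. In that annotation Col4a2 and Col4a1 point away from each other with 76 bases between their starts, Col4a3 and Col4a4 with 412, and Col4a5 and Col4a6 with 1414. The first sequence is the whole interval between the Col4a2 and Col4a1 starts (chr16:84885521-84885596, plus strand, read towards Col4a1). The others run up to the annotated gene: Col4a3 at chr9:91323740-91323989 (plus strand), Col6a1 at chr20:11905440-11905689 (plus strand) and Col6a3 at chr9:98887061-98887208 (minus strand). Capitals mark a match to 1 of 3 promoter motifs searched on either strand. Matches of different motifs may share bases, and those found here shared none.
Col4a2-Col4a1 interval: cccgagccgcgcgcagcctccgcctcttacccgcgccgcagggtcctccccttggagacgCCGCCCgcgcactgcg
Col4a3 upstream: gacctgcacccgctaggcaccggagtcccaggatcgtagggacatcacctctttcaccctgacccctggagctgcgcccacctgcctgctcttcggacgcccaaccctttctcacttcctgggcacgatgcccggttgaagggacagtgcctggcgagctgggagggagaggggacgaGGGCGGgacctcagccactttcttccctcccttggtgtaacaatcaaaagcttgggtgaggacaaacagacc
Col6a1 upstream: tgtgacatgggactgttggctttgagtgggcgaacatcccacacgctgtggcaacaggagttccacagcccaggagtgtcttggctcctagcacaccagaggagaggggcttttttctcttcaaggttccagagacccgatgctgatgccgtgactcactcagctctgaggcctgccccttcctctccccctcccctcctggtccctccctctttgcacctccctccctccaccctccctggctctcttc
Col6a3 upstream: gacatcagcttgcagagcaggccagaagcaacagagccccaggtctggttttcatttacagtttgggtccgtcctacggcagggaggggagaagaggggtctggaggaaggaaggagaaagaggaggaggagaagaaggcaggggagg
A GC box, spelled GGGCGG, was the single match in the Col4a2-Col4a1 interval and the single match upstream of Col4a3, and the stretches of Col6a1 and Col6a3 held 0 matches. RefSeq windows of 300 bases around the start were at hand for 35 of the 44 chains. A GC box lay in 19 of these 35 windows, against 33.1% of all 33469 windows, and a CCAAT box, named by its letters, in 11 of 35 against 37.5%. The TATA box was searched in the form TATAAA and lay in 4 of 35 windows, against 14.2%. The 35 were 1 window per chain, while the 33469 were all windows at hand, with no limit per gene applied. A match describes the letters only.

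Single collagen chains changed in both directions after LPS. Of the 38 chains with enough counts for a test, 4 rose (Col3a1, Col13a1, Col15a1 and Col27a1) and 5 fell (Col4a3, Col6a5, Col6a6, Col9a3 and Col11a1). The largest change was that of Col6a6, a beaded filament chain, which fell 4.91-fold. The median log2 fold change (LPS minus PBS throughout) over the 38 was 0.02, with 19 values above 0 and 19 below, and the median over all 16117 genes tested was 0.01. A chain is called at an adjusted p under 0.05 over all genes tested. By that rule 23.7% of the tested chains were called, against 16.9% of all genes: 10.5% were called higher, against 9.49%, and 13.2% lower, against 7.45%. The values of the groups did not overlap for 12 chains, or 31.6%, against 23.4% of all genes.

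These counts depended on single libraries. Without any one library but LPS4, 0 to 2 chains rose, with 0 in the absence of PBS3, and without LPS4 4 rose. The number that fell was 1 without PBS2, 2 without LPS1 or LPS3, 3 without PBS1, PBS3 or PBS4, 5 without LPS2 and 6 without LPS4. PBS1 was the highest PBS library for 20 of the 38 chains and LPS2 the highest LPS library for 18, and with the pair removed 3 chains rose and 6 fell. The chains counted were not always the same ones. Without LPS2, and also with the pair removed, those that fell no longer held Col4a3 and Col6a5 but held Col6a3 and Col28a1. DESeq2 called 4 higher and 9 lower.

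**Figure D1:**
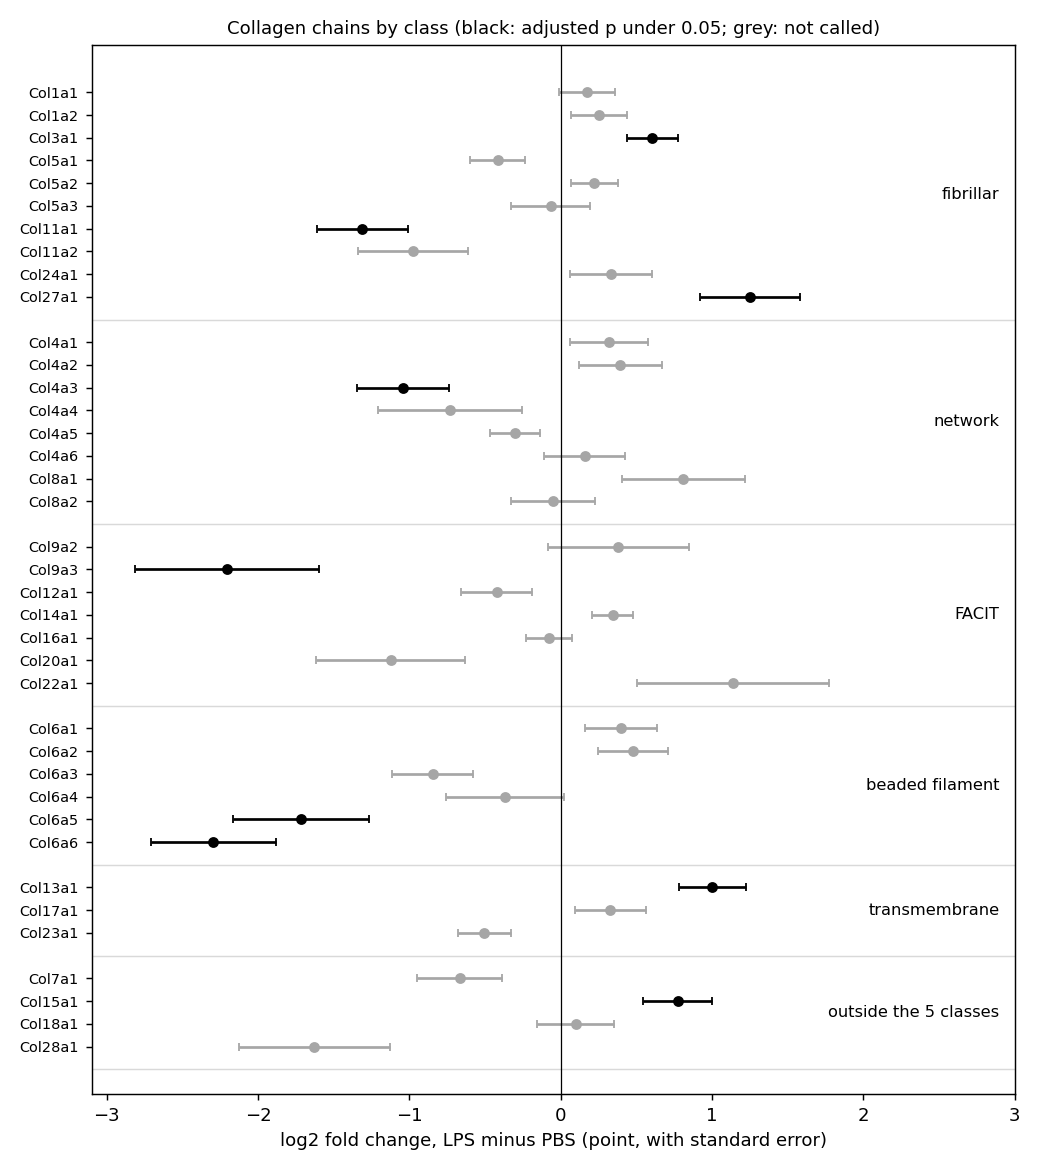
Log2 fold change (LPS minus PBS, x axis) with its standard error for each of the 38 tested collagen chains (y axis), grouped by class. Black points passed an adjusted p of 0.05 and grey points did not: called chains lie on both sides of 0, from -2.29 for Col6a6 to 1.25 for Col27a1.

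The cervix is a mixed tissue, and in whole tissue fewer cells of a type cannot be told apart from less RNA per cell. Each list for its main cell types held tested markers, 1 of 8 listed epithelial markers was not analysed here, and 3 of 6 decidua and trophoblast markers (Prl8a2, Prl6a1 and Gcm1) had 0 counts and the list summed to at most 0.345 counts per 1000000 counts (CPM, scaled by TMM) in any library. LPS libraries held more leukocyte markers (6 of 8 higher and 0 lower, summed level 206 to 290 CPM in PBS and 1063 to 1870 in LPS) and a larger fibroblast sum (2133 to 2448 and 4073 to 6341 CPM). In the fibroblast list Dcn, Lum and Pdgfra were called higher, 0 of 9 were called lower, and the median was 0.14. Dcn alone went from a mean of 1245 to 3449 CPM. Among its markers not called, Dpt (-0.26), Pi16 (-0.48), Fap (-0.17) and Mfap5 (-0.49) had log2 fold changes below 0. Thy1 (0.14) and Tcf21 (0.65) had values above 0. The LPS libraries held less of the smooth muscle list (0 higher and 6 of 8 lower, 4469 to 12432 and 3710 to 5427 CPM). The epithelial sum ran from 6940 to 11397 CPM in PBS and from 5079 to 6128 CPM in LPS. Of its 7 tested markers 1 was lower, Krt13, from a mean of 2197 to 94.9 CPM, and 6 were not called. Marker counts here and below stand beside 9.49% of all genes called higher and 7.45% called lower. The part these mixtures had in the results on collagen was not tested.

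The summed level of the 44 chains was 27346, 23323, 20854 and 22274 CPM in PBS1 to PBS4 and 25737, 38497, 24478 and 24452 CPM in LPS1 to LPS4. LPS2 stood above all other libraries, and the groups overlapped. The mean in LPS was 1.21 times that in PBS, or 1.06 times without LPS2. Collagen chains took 2.34 ± 0.232% of all counts in PBS and 2.83 ± 0.63% in LPS (mean ± SD, n = 4 per group), which is a share of reads and not corrected for transcript length. Fibrillar chains took 1.31 ± 0.122% and 1.63 ± 0.367%, beaded filament chains 0.627 ± 0.11% and 0.74 ± 0.244%, and network chains 0.2 ± 0.0639% and 0.244 ± 0.0316%. The sums of all 6 classes overlapped between the groups.

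**Figure D2:**
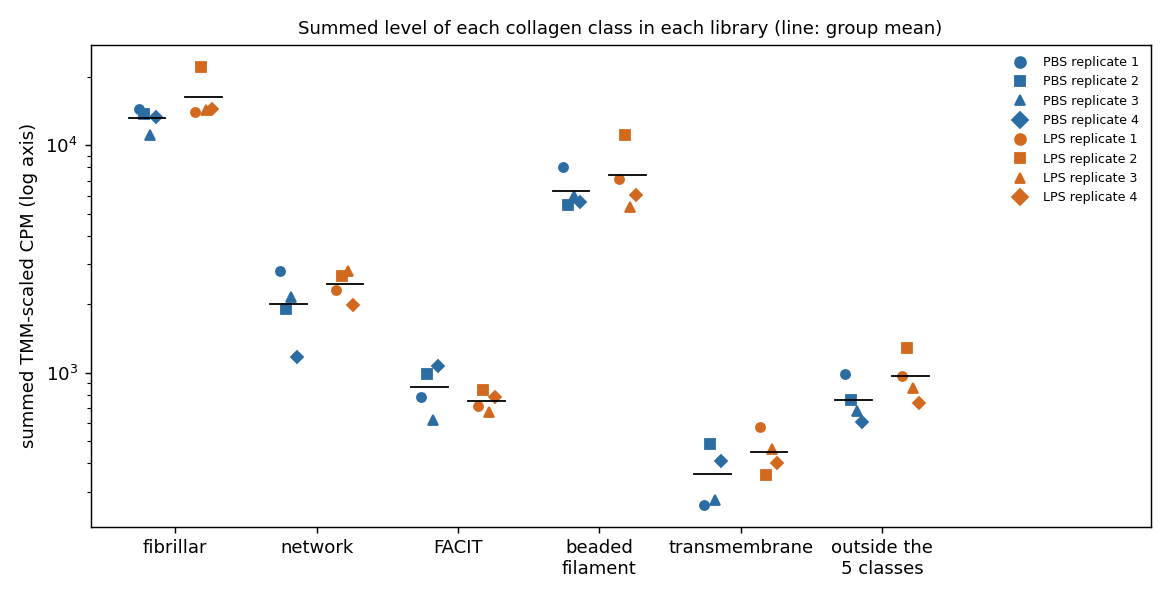
Summed TMM-scaled CPM (y axis, log scale) of the chains of each class (x axis) in the 8 libraries, with PBS in blue, LPS in orange, 1 symbol per replicate number and a line at each group mean. In every class the groups overlap, and LPS2 is highest for the fibrillar chains (22212 CPM) and the beaded filament chains (11130 CPM).

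Among the fibrillar chains, 2 of 10 tested rose (Col3a1 and Col27a1) and 1 fell (Col11a1), against 9.49% higher and 7.45% lower of all genes. The median log2 fold change was 0.20. Col3a1, the single chain of type III collagen, which forms thin fibrils in distensible tissues, was at 4034, 3760, 3093 and 3453 CPM in PBS and at 4877, 7301, 4987 and 4656 CPM in LPS. Every LPS library lay above every PBS library, and LPS2 was the highest. Col3a1 rose by 0.61 (SE 0.17, adjusted p = 0.0416), a call lost without any one of 7 libraries, all but LPS4 (0.43 to 0.66 over these 7, adjusted p of 0.0521 to 0.101).

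Type I collagen, the main fibril of most connective tissues, is made of 2 chains of Col1a1 and 1 of Col1a2. Col1a1 stood at 5649, 5567, 4395 and 5600 CPM in PBS and at 5038, 8317, 5230 and 5334 CPM in LPS. The groups overlapped, with PBS3 the lowest and LPS2 the highest library. Its log2 fold change was 0.17 (SE 0.19, adjusted p = 0.56), or -0.04 without LPS2. Col1a2 had 3197 ± 342 CPM in PBS and 3808 ± 1008 in LPS (n = 4 per group; 0.25, adjusted p = 0.377), and 0.04 without LPS2.

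Col27a1 encodes a fibrillar chain that is best known from cartilage. It measured 8.35, 6.81, 5.08 and 10.5 CPM in PBS and 10.9, 19.6, 28.6 and 13.9 CPM in LPS, where LPS1 was just above PBS4 and LPS3 the highest. It rose by 1.25 (SE 0.33, adjusted p = 0.0336). The call was lost without PBS1, PBS2 or PBS3 or LPS2 or LPS3 (0.95 to 1.29 over these, adjusted p up to 0.0962), with limma-voom (adjusted p = 0.0504), and with the pair PBS1 and LPS2 removed (adjusted p = 0.0986).

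Col11a1, a chain of the minor fibrillar collagen that nucleates fibrils, had 14.6, 9.48, 7.61 and 7.61 CPM in PBS and 3.06, 5.66, 2.81 and 4.33 CPM in LPS. All LPS libraries lay below all PBS libraries. It fell by 1.31 (SE 0.30, adjusted p = 0.0204), with values of -1.54 to -1.06 over the 8 leave-outs. The call was lost without PBS2 or LPS1 or LPS3, where the adjusted p reached 0.0523. Col11a2, which can join it in 1 trimer, had 1.15 ± 0.106 CPM in PBS and 0.58 ± 0.267 in LPS. Its groups did not overlap, and its value was -0.98 (adjusted p = 0.0991), or -1.33 without LPS4 (adjusted p = 0.0367). DESeq2 and the weighted limma-voom fit called it.

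Col5a1 and Col5a2 form type V collagen, which sits inside type I fibrils and limits their width. Col5a1 had 514 ± 103 CPM in PBS and 385 ± 79.7 in LPS (-0.42, adjusted p = 0.151), and Col5a2 had 469 ± 44.4 and 547 ± 118 CPM (0.22, adjusted p = 0.361, or 0.08 without LPS2). Col5a3 was at 69.1 ± 26.1 and 65.9 ± 15.5 CPM and Col24a1 at 5.45 ± 1.4 and 6.86 ± 1.95 CPM, and neither was called. Col2a1, the fibrillar chain that defines cartilage, had 6 counts over the PBS libraries and 3 over the LPS libraries and was not tested. Of the cartilage markers Matn1, Matn3 and Cnmd were below the filter on low counts, and of the 5 tested 1 was higher (Hapln1, 1.52, adjusted p = 0.0476) and 0 lower. The summed list, mostly Sox9, ran from 13.1 to 35.5 CPM in PBS and from 12.5 to 17.5 CPM in LPS.

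Of 8 tested network chains, 0 rose and 1 fell, Col4a3 (all genes: 9.49% higher and 7.45% lower), and the median was 0.05. Col4a1 and Col4a2, which together form the common collagen IV trimer of all basement membranes and flank the 76-base interval shown above, ran side by side. Col4a1 held 1453, 941, 1113 and 566 CPM in PBS and 1252, 1333, 1462 and 1034 CPM in LPS. Col4a2 held 993, 646, 743 and 370 CPM in PBS and 857, 986, 1074 and 701 CPM in LPS. Both genes were lowest in PBS4 and highest in LPS3, and the groups overlapped. Their log2 fold changes were 0.32 (adjusted p = 0.429) and 0.39 (adjusted p = 0.355). They were 0.12 and 0.19 without PBS4, and 0.54 and 0.62 without PBS1. The summed endothelial markers, a cell type with its own basement membrane, were also lowest in PBS4 (367 CPM) and highest in PBS1 (820 CPM), and ran from 404 to 615 CPM in LPS, with 1 of 8 markers lower. Their part in the collagen IV values was not tested.

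Col4a3 and Col4a4 belong to the collagen IV trimer of a few specialised basement membranes such as that of the kidney glomerulus. Col4a3 was at 12.9, 12.4, 7.86 and 9.56 CPM in PBS and at 6.05, 3.58, 7.77 and 3.3 CPM in LPS. The groups were apart by the small gap between PBS3 and LPS3. It fell by 1.04 (SE 0.30, adjusted p = 0.0471). That call was lost without any one of 7 libraries, all but LPS3 (-1.17 to -0.88 over these 7, adjusted p of 0.0561 to 0.122), and with the pair PBS1 and LPS2 removed (-0.80, adjusted p = 0.161). Col4a4 had 1.26 ± 0.524 CPM in PBS and 0.759 ± 0.37 in LPS (-0.73, adjusted p = 0.321, or -0.46 without PBS1 and -0.47 without LPS4). Their partner Col4a5 had 203 ± 36.6 and 164 ± 29.8 CPM (-0.30, adjusted p = 0.245) and Col4a6 71.3 ± 10 and 79.6 ± 34.7 CPM (0.16, or -0.18 without LPS2). Col8a1, a short-chain network collagen of vessel walls, had 9.53 ± 5.4 and 16.7 ± 5.19 CPM (0.81, adjusted p = 0.207), and Col8a2 4.23 ± 1.15 and 4.08 ± 1.15 CPM (-0.05). Col10a1, the network chain of growth-plate cartilage, had 0 counts in PBS and 4 in LPS and was not tested.

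Of 7 tested FACIT chains, 0 rose and 1 fell, Col9a3 (all genes: 9.49% higher and 7.45% lower), and the median was -0.08. Col12a1, which bridges type I fibrils, stood at 461, 634, 326 and 734 CPM in PBS and at 363, 400, 370 and 472 CPM in LPS. The PBS libraries surrounded those of LPS on both sides, and the value was -0.42 (SE 0.23, adjusted p = 0.247), or -0.24 without PBS4. Col16a1 was at 183, 203, 184 and 203 CPM in PBS and at 169, 248, 165 and 149 CPM in LPS, where 3 libraries lay below all of PBS and LPS2 above (-0.08, adjusted p = 0.767). Col14a1, known from embryonic and tendon fibrils, had 126 ± 17.6 and 160 ± 22.3 CPM (0.34, adjusted p = 0.116).

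Col9a3, a chain of the cartilage collagen IX, was scarce in every library. It had 0.613, 1.24, 0.715 and 1.05 CPM in PBS and 0.124, 0.0256, 0.304 and 0.318 CPM in LPS, from 24 to 50 counts per PBS library and 1 to 13 per LPS library. No LPS library reached the lowest PBS library, and Col9a3 fell by 2.21 (SE 0.61, adjusted p = 0.0395). Its LPS libraries alone would not have passed the filter on low counts, and it was called with no filter as well (adjusted p = 0.0478). The call was lost without PBS2, PBS3 or PBS4 or LPS1 or LPS3 (-2.55 to -1.86 over all 8 leave-outs, adjusted p up to 0.109). Its trimer partner Col9a2 had 3.49 ± 1.64 and 4.55 ± 2.5 CPM (0.38, adjusted p = 0.613), and Col9a1 had 3 and 4 counts and was not tested. Col20a1 had 2.13 ± 0.841 and 0.975 ± 0.673 CPM. Its value of -1.12 (adjusted p = 0.153) became -1.73 without LPS4 (adjusted p = 0.029), and its exons may share reads with Chrna4, whose annotated span overlaps it. Col22a1 had 0.233 ± 0.0975 and 0.512 ± 0.384 CPM (1.14, adjusted p = 0.251, or 0.67 without LPS1). Col19a1 was below the filter with 108 counts over PBS and 22 over LPS.

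Of the 6 beaded filament chains, all tested, 0 rose and 2 fell (Col6a5 and Col6a6), against 9.49% higher and 7.45% lower of all genes. The class median was -0.61. Collagen VI is assembled from 1 chain each of Col6a1, Col6a2 and a variable chain, which is Col6a3 in most tissues and can be Col6a4, Col6a5 or Col6a6. Col6a6 measured 8.15, 3.74, 2.69 and 4.53 CPM in PBS and 1.19, 0.614, 0.734 and 1.34 CPM in LPS. Its groups stood well apart, with PBS1 the highest. It fell by 2.29 (SE 0.41, adjusted p = 0.00812), with values of -2.49 to -1.91 over the 8 leave-outs. It was the single called chain that passed the threshold under each of the 17 alternatives (adjusted p up to 0.0254).

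Col6a5, its neighbour in the annotation, was at 12.5, 4.85, 5.64 and 4.08 CPM in PBS and at 1.24, 1.31, 2.79 and 2.91 CPM in LPS. PBS1 again stood above the rest, and no LPS library reached PBS. The gene fell by 1.72 (SE 0.45, adjusted p = 0.0336), or by 1.24 without PBS1. The adjusted p was above 0.05 on removal of any of 6 libraries, all but PBS4 and LPS4 (adjusted p up to 0.076), and with the pair PBS1 and LPS2 removed (adjusted p = 0.0991). Col6a4, next to Col6a5, had 180 ± 88.6 and 140 ± 57.4 CPM (-0.37, adjusted p = 0.558, or 0.0026 without PBS1). All 3 of these genes overlap a span annotated as Rpl29 on GRCr8, so reads could be shared.

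Col6a3 had 1874, 1112, 1125 and 908 CPM in PBS and 657, 1005, 564 and 565 CPM in LPS. LPS2 reached into the PBS range, and the other LPS libraries lay below it. The value was -0.85 (SE 0.27, adjusted p = 0.0622), so Col6a3 was not called. It was called without LPS2 (-1.08, adjusted p = 0.0284), with the pair PBS1 and LPS2 removed (-0.82, adjusted p = 0.013) and by DESeq2 (adjusted p = 0.0101). Col6a1 stood at 3023, 2091, 2502 and 2417 CPM in PBS and at 3207, 5019, 2359 and 2649 CPM in LPS. Col6a2 stood at 2848, 2084, 2205 and 2234 CPM in PBS and at 3069, 4902, 2330 and 2757 CPM in LPS. In both, LPS2 was the highest library and the groups overlapped. Their values were 0.40 (adjusted p = 0.285) and 0.48 (adjusted p = 0.187), or 0.12 and 0.21 without LPS2.

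**Figure D3:**
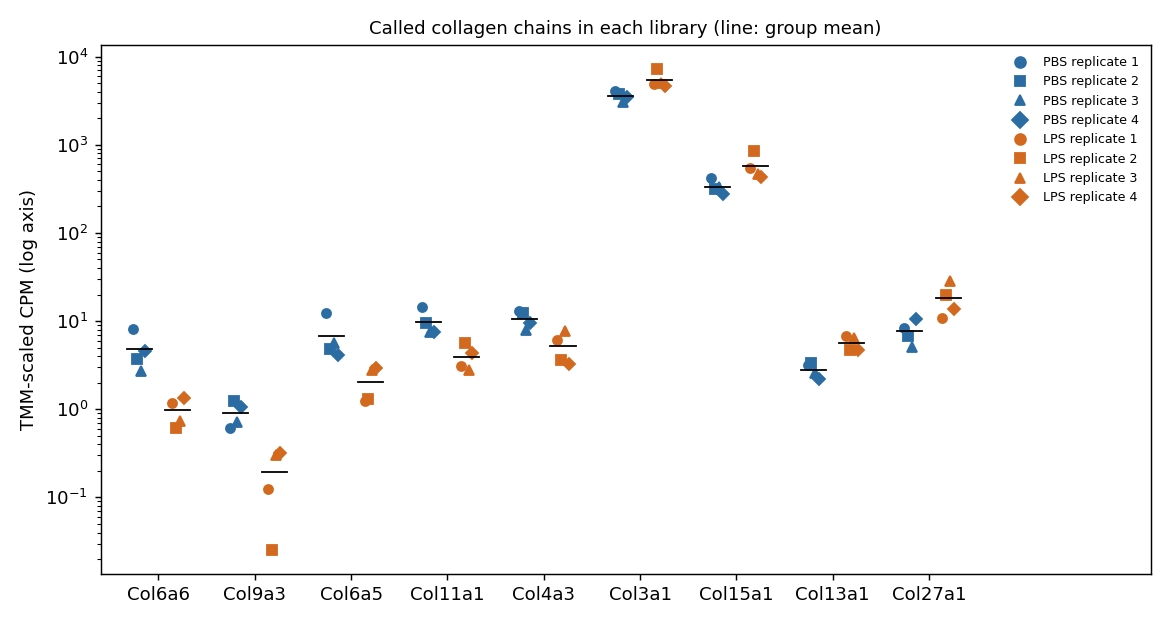
TMM-scaled CPM (y axis, log scale) of the 9 called chains (x axis) in the 8 libraries, with PBS in blue, LPS in orange, 1 symbol per replicate number and a line at each group mean. For all 9, which were called by a test on these same values, the groups do not overlap, against 23.4% of all genes tested. The narrowest gaps are those of Col4a3 (7.86 against 7.77 CPM), Col15a1 (417 against 426 CPM) and Col27a1 (10.5 against 10.9 CPM).

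Of 3 tested transmembrane chains, 1 rose (Col13a1) and 0 fell (all genes: 9.49% higher and 7.45% lower), and the median was 0.33. Col13a1, which is enriched at cell adhesion sites and at the neuromuscular junction, had 3.17, 3.34, 2.56 and 2.19 CPM in PBS and 6.84, 4.66, 6.41 and 4.65 CPM in LPS. Every LPS library was above every PBS library. It rose by 1.0003 on the log2 scale (SE 0.22, adjusted p = 0.0177), and the call was lost without PBS3 (0.96, adjusted p = 0.051). Col17a1, the hemidesmosome collagen that anchors basal epithelial cells, was at 252, 475, 267 and 401 CPM in PBS and at 564, 347, 451 and 390 CPM in LPS. The groups overlapped, and its value was 0.33 (adjusted p = 0.37), or 0.18 without LPS1. Col23a1 was at 7.43, 7.52, 6.51 and 6.23 CPM in PBS and at 5.51, 5.04, 3.6 and 5.35 CPM in LPS. Its groups did not overlap, yet its value of -0.51 (SE 0.17) did not pass (adjusted p = 0.0808), though it did with DESeq2 (adjusted p = 0.018). Col25a1, known from neurons, had 5 counts in PBS and 17 in LPS and was not tested.

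Outside the 5 classes, 1 of 4 tested chains rose (Col15a1) and 0 fell, against 9.49% higher and 7.45% lower of all genes. Col15a1 and Col18a1 are the multiplexins, basement-membrane collagens whose last domains can be released as the peptides restin and endostatin. Col15a1 stood at 417, 314, 329 and 276 CPM in PBS and at 541, 849, 467 and 426 CPM in LPS. LPS4 was just above PBS1, and LPS2 the highest. It rose by 0.77 (SE 0.23, adjusted p = 0.0497). The call lay at the threshold: it was lost with RLE scaling (adjusted p = 0.0529), upper-quartile scaling (0.0525) and both other filters (0.0555 and 0.0517). It was also lost without any one of PBS2, PBS3 and PBS4 and LPS1, LPS2 and LPS3, where the adjusted p reached 0.126 and the value was 0.51 without LPS2. Col18a1 was at 443, 260, 266 and 188 CPM in PBS and at 336, 346, 332 and 224 CPM in LPS. LPS4 lay below the other LPS libraries, the groups overlapped, and the value was 0.10 (adjusted p = 0.822), or -0.06 without PBS4.

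Col7a1, the chain of the anchoring fibrils beneath stratified epithelium, had 125 ± 43.4 CPM in PBS and 78.9 ± 19 in LPS (-0.67, adjusted p = 0.138). It passed without PBS3 (-0.87, adjusted p = 0.0437). Col28a1, known from the basement membrane around Schwann cells of peripheral nerve, had 10.7 ± 2.16 and 3.44 ± 2.38 CPM. Its groups did not overlap, with 8.46 to 13.4 CPM in PBS and 0.845 to 6.55 CPM in LPS, but its value of -1.63 (SE 0.50) did not pass (adjusted p = 0.0564). It passed without LPS1 (-2.14, adjusted p = 0.0251), without LPS2 (-1.31, adjusted p = 0.0347) and with DESeq2 and both limma-voom fits. LPS2 held the least Col28a1, and it also held the least of the summed Schwann cell markers (116 CPM). The list summed to 223, 225 and 261 CPM in LPS1, LPS3 and LPS4 and to 255 to 368 CPM in PBS. Of the 7 Schwann cell markers 3 were lower and 0 higher, and their part in Col28a1 was not tested. Col26a1 had 15 and 19 counts and was not tested.

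The balance between chains was measured as the ratio of their counts in each library, which needs no library scaling. Of 12 pairs, 0 passed an adjusted p of 0.05 in exact two-sided permutation tests. For 5 the groups did not overlap, at the smallest p that 70 arrangements can give (exact permutation p = 0.0286, adjusted p = 0.0686 over the 12 pairs). With 5 pairs at this smallest p, none could pass after adjustment, however far apart the groups were. The Col6a3 to Col6a1 ratio, which compares the usual variable collagen VI chain with a constant one, was 0.62, 0.532, 0.45 and 0.376 in PBS and 0.205, 0.2, 0.239 and 0.213 in LPS. It was lower in 4 of 4 LPS libraries than in any PBS library, 2.27-fold on average (log2 difference -1.18, and -1.31 to -1.07 with 1 library left out). LPS2, which stood apart in the level of both genes, had a ratio like the other LPS libraries.

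The Col3a1 to Col1a1 ratio was 0.714, 0.675, 0.704 and 0.617 in PBS and 0.968, 0.878, 0.954 and 0.873 in LPS, with 4 of 4 LPS libraries above all of PBS (log2 difference 0.44, or 0.39 to 0.47 with 1 library left out). Here too LPS2 lay within the range of its group. The Col5a1 to Col5a2 ratio was 1.22, 1.14, 0.907 and 1.09 in PBS and 0.79, 0.717, 0.679 and 0.641 in LPS (log2 difference -0.62). The Col12a1 to Col14a1 ratio was 3.21 to 5.66 in PBS and 2.03 to 3.17 in LPS (-0.71), and that of Col1a1 to Col1a2 was 1.63 to 1.69 and 1.55 to 1.63 (-0.08). A fold of this last size is small, though the groups did not overlap.

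For the other 7 pairs the groups overlapped. Col4a1 to Col4a2 ran from 1.46 to 1.53 in PBS and from 1.35 to 1.48 in LPS (-0.07, exact permutation p = 0.143, adjusted p = 0.171), so the genes on either side of the short shared interval kept a ratio within these bounds in all 8 libraries. Col6a1 to Col6a2, neighbours in the annotation, ran from 1.004 to 1.13 and from 0.961 to 1.04. Col4a3 to Col4a4 ran from 6.72 to 10.6 and from 3.5 to 12.3, with Col4a4 at 12 to 75 counts per library.

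**Figure D4:**
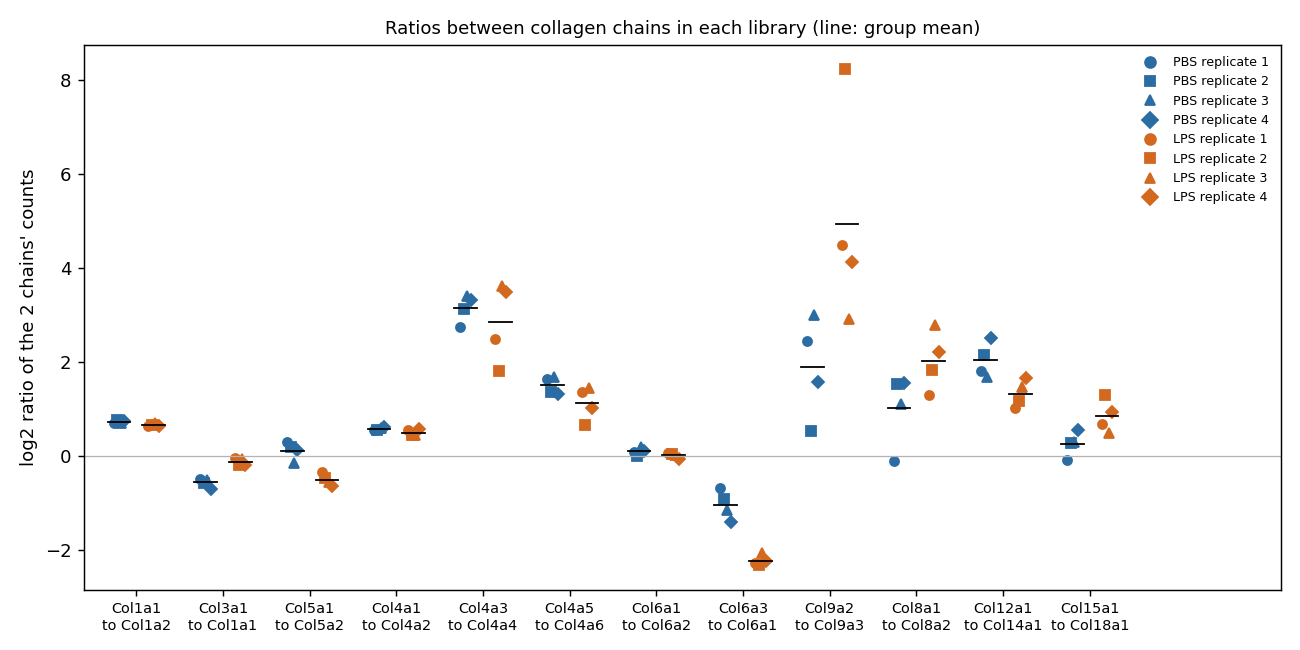
Log2 of the ratio between the counts of 2 collagen chains (y axis) for the 12 pairs (x axis) in the 8 libraries, with PBS in blue, LPS in orange, 1 symbol per replicate number and a line at each group mean. The groups are apart for 5 pairs, most clearly for Col6a3 to Col6a1 (0.376 to 0.62 in PBS and 0.2 to 0.239 in LPS), while Col4a1 to Col4a2 and Col6a1 to Col6a2 lie in narrow, overlapping bands.

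Of 22 tested genes that fold and modify collagen chains in the endoplasmic reticulum, 7 rose and 1 fell, against 9.49% higher and 7.45% lower of all genes, with a median of 0.24. P4ha1 and P4hb, the subunits of prolyl 4-hydroxylase, which stabilises the triple helix, rose from 65 ± 13.7 to 118 ± 15.1 CPM (log2 fold change 0.87, SE 0.16, adjusted p = 0.00858) and from 961 ± 79.3 to 1327 ± 83.8 CPM (0.47, SE 0.10, adjusted p = 0.0141). P3h2, a prolyl 3-hydroxylase, fell from 20.2 ± 3.18 to 14.1 ± 2.1 CPM (-0.52, adjusted p = 0.0462). The number that rose was 1 without PBS2, 3 without PBS3, and 4 without PBS4 or LPS3. The call of P4hb was lost without PBS2, and that of P3h2 without any one of PBS1, PBS2 and PBS4 and LPS1, LPS2 and LPS3.

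Of 11 tested genes of propeptide processing and crosslinking, 5 rose and 1 fell, against 9.49% higher and 7.45% lower of all genes, with a median of 0.59. Lox, a lysyl oxidase that starts the covalent crosslinks of fibrils, had 49.1, 62.7, 33.4 and 60.8 CPM in PBS and 184, 114, 316 and 134 CPM in LPS, and rose by 1.86 (SE 0.34, adjusted p = 0.00863). Its relative Loxl3 rose by 0.78 (adjusted p = 0.0214), and Loxl4 fell by 1.26 (adjusted p = 0.0338), or by 0.83 without PBS1. The number that rose was 1 without PBS3, 2 without PBS2, PBS4 or LPS2, and 3 without LPS1 or LPS3 or with the pair PBS1 and LPS2 removed. Loxl3 lost its call without PBS2 or PBS3 or LPS1 or LPS2, and Loxl4 lost it without 6 libraries, PBS2 and PBS3 and the 4 of LPS.

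Of 6 tested collagenases and gelatinases, 2 rose and 0 fell, against 9.49% higher and 7.45% lower of all genes. They were Mmp9, a gelatinase with 0.0743 to 0.599 CPM in PBS and 21.8 to 60.5 CPM in LPS, which rose by 7.06 (SE 0.57, adjusted p = 0.0004), and Mmp8, the neutrophil collagenase, which rose by 5.94 (SE 1.01, adjusted p = 0.00644). The PBS libraries of Mmp9 alone would not have passed the filter on low counts. Its lowest PBS level lay near that of 3 counts, so the size of its rise is uncertain. Mmp8 stood at 14.5, 8.32 and 18 CPM in LPS1, LPS2 and LPS3 and at 115 CPM in LPS4. With LPS4 left out, 4 of the 6 rose. DESeq2 called 3 of the 6 higher. Mmp1 and Mmp13 were below the filter, Mmp13 with a mean of 0.026 CPM in PBS and 0.535 CPM in LPS. With no filter, 3 of 8 were called higher. Both limma-voom fits left Mmp8 uncalled. The leukocyte sum given above was also higher in LPS than in PBS, and the part of leukocytes in these enzymes was not tested. LPS2 held the least Mmp8 and Mmp9 of the LPS libraries, while LPS1 had the lowest leukocyte sum.

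Of 10 collagen receptors, 2 rose and 1 fell, against 9.49% higher and 7.45% lower of all genes, with a median of 0.07. Itga11, the integrin subunit of fibroblasts that binds type I collagen, was at 9.91, 10.2, 5.45 and 7.34 CPM in PBS and at 1.31, 2.41, 1.75 and 1.83 CPM in LPS, and fell by 2.17 (SE 0.27, adjusted p = 0.0019). Itga2, the subunit of the collagen receptor of epithelium and platelets, rose from 21.3 ± 4.79 to 44.8 ± 4.76 CPM (1.07, SE 0.16, adjusted p = 0.00417). Both kept their calls with each library left out in turn. The count of receptors that rose was 2 or 3 in every leave-out.

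Of 17 basement membrane partners, 5 rose and 3 fell, against 9.49% higher and 7.45% lower of all genes, with a median of 0.02. Lama1, a laminin chain of early basement membranes, was called higher (adjusted p = 0.00491), with 0.03 to 0.102 CPM in PBS and 0.371 to 1.09 CPM in LPS. It passed the filter on low counts through the LPS libraries alone, its PBS level lay near that of 3 counts, and it was not tested under the filter of 1 CPM. The laminin chains that fell were Lama2 of muscle and nerve (-1.16, adjusted p = 0.022), Lamb2 (-0.56, adjusted p = 0.0382) and Lamc3 (-1.23, adjusted p = 0.0393). The number that rose was 1 without PBS2, 2 without PBS3, LPS1 or LPS2 and 3 without PBS4 or LPS3. The number that fell was 0 without PBS2, LPS1 or LPS4 and 1 without PBS1, PBS3 or LPS3. With the pair PBS1 and LPS2 removed, 1 rose and 1 fell. The call of Lama2 was lost without PBS2 or LPS1 or LPS4, that of Lamb2 without 6 libraries (all but PBS4 and LPS2), and that of Lamc3 without any one of 7 (all but PBS4).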

How the data were processed

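Total RNA of cervix was turned into 8 libraries with a VAHTS Universal V6 kit, per the labels' protocols. Whole-number read counts for every gene symbol were deposited by the authors. Named in the submitters' processing notes, without roles, are HISAT2, HTSeq, fastp, R 3.2.0 and the build mRatBN7.2. The strand setting is not given in the sources used here, and 24 of the 44 chains overlap another gene annotated on GRCr8 (Col1a1 and Sgca, for example), where reads could be shared.

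Genes passing edgeR's filterByExpr (16117) received TMM scaling (trimmed mean of M values) and robust quasi-likelihood F tests in edgeR 4.0.16 under R 4.3.3. Adjustment followed Benjamini and Hochberg over all genes. The SE is the size of the log2 fold change divided by the square root of F. Scripts were tested on simulated data. Ratios had exact permutation tests. A level of 0.0738 to 0.0904 CPM corresponded to 3 counts.

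Chains given in every library were those called and, per class, the 2 with the highest mean CPM, and the others are given by means or counts. Col6a3 is also given in every library and was chosen after its values were seen. From each list of related genes, the 2 called genes with the lowest adjusted p and those called against the majority were named. One gene that this rule names is not reported here. Members, lists and rules were chosen with earlier results of these data known. Alternatives were 2 other scalings (RLE, upper quartile), 2 other filters (none, or 1 CPM in 4 libraries), DESeq2 1.42.0, limma-voom (limma 3.58.1) unweighted or with quality weights, each library left out, the pair PBS1 and LPS2 left out, and a block for the replicate number. Sequences are RefSeq's.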

Additional observations from a re-analysis of the deposited data

Results flagged for a closer look

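In groups of 4 libraries, a library was singled out where its gap to the next took up most of the group's range (Dixon's test at the 95% level), which chance alone gives in about 1 group in 20. Of 76 groups of gene levels, 7 were singled out. LPS2 was the highest for Col1a1 (8317 CPM, others 5038 to 5334), Col1a2 (5312 CPM, others 3218 to 3440) and Col3a1 (7301 CPM, others 4656 to 4987). PBS3 was the lowest for Col1a1 (4395 CPM, others 5567 to 5649). LPS3 was the highest for Col8a1 (24.5 CPM, others 13.9 to 14.5), LPS4 the lowest for Col18a1 (224 CPM, others 332 to 346) and the highest for Col20a1 (1.98 CPM, others 0.568 to 0.691). Of 24 groups of ratios, 1 was singled out, Col9a2 to Col9a3 in LPS2 (298, others 7.5 to 22.4), where Col9a3 had 1 count.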

How the results depend on the processing

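Over 17 alternatives, the 9 called chains kept their direction in all 152 values and their call in 98. The groups of these 9 did not overlap, so leaving out libraries could hardly have reversed a direction, and the kept direction is no support. The 29 chains not called passed the threshold in 16 of 492 values. With 1 library left out, 0 to 4 chains rose and 1 to 6 fell, and the family median ran from -0.054 to 0.19. Over the same leave-outs all genes gave 904 to 1385 higher and 563 to 1199 lower, folding and modification 1 to 9 higher and 0 to 1 lower, processing and crosslinking 1 to 5 and 0 to 1, collagenases 2 to 4 higher, receptors 2 to 3 higher, and basement membrane partners 1 to 5 higher and 0 to 3 lower. DESeq2 gave 9 chains lower, 2089 genes lower, 2 folding genes lower and 2 receptors lower, against 2099 genes higher. Folding genes lower were 0 without a filter and 0 with weighted limma-voom. Crosslinking genes lower were 0 with limma-voom and collagenases higher 1 with either limma-voom fit. With PBS1 and LPS2 both removed, 3 crosslinking genes were higher and 0 lower, and 1 basement membrane partner was higher and 1 lower. The cause was not tested.

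Correlations of same-numbered deviations from the group means were -0.134, -0.181, -0.0867 and 0.208, and those of other-numbered libraries ran from -0.215 to 0.24. With 4 libraries per group, these values cannot decide whether the replicate numbers pair the libraries. The numbers are those of the sample titles, and the library name of LPS4 carries another number. By library name PBS4 and LPS4 would therefore not match. With the replicate number as a block, 1 chain rose and 3 fell, 0 crosslinking genes fell and 3 basement membrane partners rose. Col13a1, Col6a6 and Col11a1 kept their calls with the block, and Col7a1 was called lower. Col3a1, Col4a3, Col6a5, Col9a3, Col15a1 and Col27a1 lost theirs. The lost calls given with each chain above leave this setting out.

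Signs changed among values that were not called in either setting. Col1a1 ran from -0.036 to 0.25 over the leave-outs (-0.0001 with PBS1 and LPS2 removed), Col4a6 from -0.18 to 0.32 (-0.13), Col5a3 from -0.24 to 0.19 (0.27), Col6a4 from -0.61 to 0.0026, Col8a2 from -0.26 to 0.087 (0.0087, and 0.050 with weighted limma-voom), Col9a2 up to 0.73 (-0.012), Col16a1 from -0.27 to 0.0084 (-0.29), Col18a1 from -0.063 to 0.38, and the Col4a3 to Col4a4 ratio from -0.56 to 0.048. Chains under 1 CPM, such as Col9a3 and Col22a1, rested on few counts.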

Other observations

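Of all collagen counts, 83.6% to 88.8% per library fell on 8 chains, Col1a1, Col1a2, Col3a1, Col6a1, Col6a2, Col6a3, Col4a1 and Col4a2. Only Col3a1 among these 8 was called, and the other 8 called chains belonged to the remaining 36.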
